A study of Mus musculus with 16 samples.

Results

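Peroxins are the proteins that build peroxisomes, and 9 of their genes were followed here: Pex3, Pex5, Pex7, Pex11a, Pex11g, Pex13, Pex14, Pex16 and Pex19. They were chosen by name, not by level, and are 9 of the 50559 gene symbols measured in mouse liver. All 9 had enough counts to be tested. The samples were 16 liver RNA libraries from male C57BL/6J mice, 4 in each of 4 groups, which started their diet at 6 weeks of age and stayed on it for 10 weeks. The LFD group, whose diet the deposited labels call chow, and the HFD group, on a 60% high-fat diet, were injected every 2 weeks with 10 mg/kg of an siRNA against luciferase, which serves as control, and were gavaged with methylcellulose over the last 4 weeks. The HFD + siRNA group received an siRNA against Khk, which encodes ketohexokinase, the first enzyme of fructose breakdown, at 20 mg/kg instead of the control siRNA, and methylcellulose. Mice of the HFD + Inhib group were given that control siRNA together with 15 mg/kg of a small molecule KHK inhibitor in methylcellulose. The comparisons ask what the diet, the loss of KHK in hepatocytes and an inhibitor of its kinase activity each do to the liver transcriptome.

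Some features limit these groups as models. The siRNA carries GalNAc, a sugar that hepatocytes take up, whereas the inhibitor acts in the whole body, and the siRNA dose of the HFD + siRNA group was higher than that of the other groups. The study reports that the inhibitor lowered KHK activity in the liver only in part and also lowered KHK protein. It further reports less protein of triokinase (TKFC), an enzyme of a later step of fructose breakdown, and proposes that the inhibitor targets TKFC too. Mice of the study were injected with saline or insulin shortly before tissue was taken, and the labels do not say which mouse received which. Nothing in the labels names the animal behind a library, so the p-values measure the spread between these libraries. In bulk liver RNA, fewer cells of a type and less RNA per cell cannot be told apart.

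A library held between 24317111 and 35820234 counts, with medians of 28920038 in the LFD, 26714482 in the HFD, 30485808 in the HFD + siRNA and 30468092 in the HFD + Inhib group. The lowest count of any of the 9 peroxin genes in a library was 315 and the highest 10682. Levels are given as CPM, the share of a library's counts scaled to a common total, with TMM normalization. A gene rose or fell where edgeR's quasi-likelihood test gave a Benjamini-Hochberg adjusted p under 0.05 over all 18335 genes tested. Khk, the check of the labels, averaged 266 ± 59.9 CPM (SD, n = 4) in the LFD, 264 ± 39.8 in the HFD, 12.7 ± 3.85 in the HFD + siRNA and 120 ± 24.1 in the HFD + Inhib group. It was lowest in the group given the siRNA against it, as labelled (log2 fold change -4.38, adjusted p = 1.9e-08 by edgeR's quasi-likelihood test). Khk was also lower with the inhibitor than in HFD livers (-1.14, adjusted p = 7.5e-04 by the same test).

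Peroxisomes are organelles that shorten very long chain and branched fatty acids by beta-oxidation, take part in bile acid and ether lipid synthesis, and break down the hydrogen peroxide that their oxidases make. They have no DNA, so every peroxisomal protein is encoded in the nucleus, made in the cytosol and imported by peroxins. PEX3, PEX16 and PEX19 place proteins in the peroxisomal membrane, PEX5 and PEX7 carry matrix enzymes to the organelle, PEX13 and PEX14 form the dock at which those carriers deliver their cargo, and the PEX11 proteins lengthen the membrane before the organelle divides. In rodent liver, ligands of the nuclear receptor PPARα are known to enlarge the peroxisome population, and Pex11a is among its known targets.

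The 4 comparisons are called the diet comparison (HFD versus LFD), the siRNA comparison (HFD + siRNA versus HFD), the inhibitor comparison (HFD + Inhib versus HFD) and the treatment comparison (HFD + Inhib versus HFD + siRNA). In the inhibitor comparison 5 of the 9 peroxin genes rose and none fell: Pex11a, Pex3, Pex19, Pex14 and Pex13. Of all genes tested, 9.8% rose and 8.42% fell there, 18.2% in either direction. Pex11a rose most, 5.24-fold, and the other 4 rose between 1.27-fold and 1.6-fold. In the diet comparison 3 of the 9 rose (Pex3, Pex19 and Pex13) and none fell, against 9.58% of all genes that rose, 8.8% that fell and 18.4% in either direction. In the siRNA comparison none rose and 1 fell (Pex13), against 5.2% of all genes that rose, 6.55% that fell and 11.7% in either direction. In the treatment comparison the same 5 genes were higher with the inhibitor as in the inhibitor comparison and Pex11g was lower, against 17.3% of all genes higher, 16.6% lower and 33.8% in either direction. The median log2 fold change of the 9 genes was 0.12 in the diet, 0.09 in the siRNA, 0.34 in the inhibitor and 0.34 in the treatment comparison, and that of all genes was -0.01, 0.02, 0.00 and -0.04 in the same order. The HFD libraries enter 3 of the comparisons, which are therefore not independent of each other. Summed hepatocyte markers, of which Alb was the most abundant, moved the other way in the inhibitor comparison. They stood at 40600 ± 1630 CPM (SD, n = 4) with the inhibitor and 65600 ± 6560 CPM in HFD livers, and their part in the peroxin results was not tested.

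**Figure D1:**
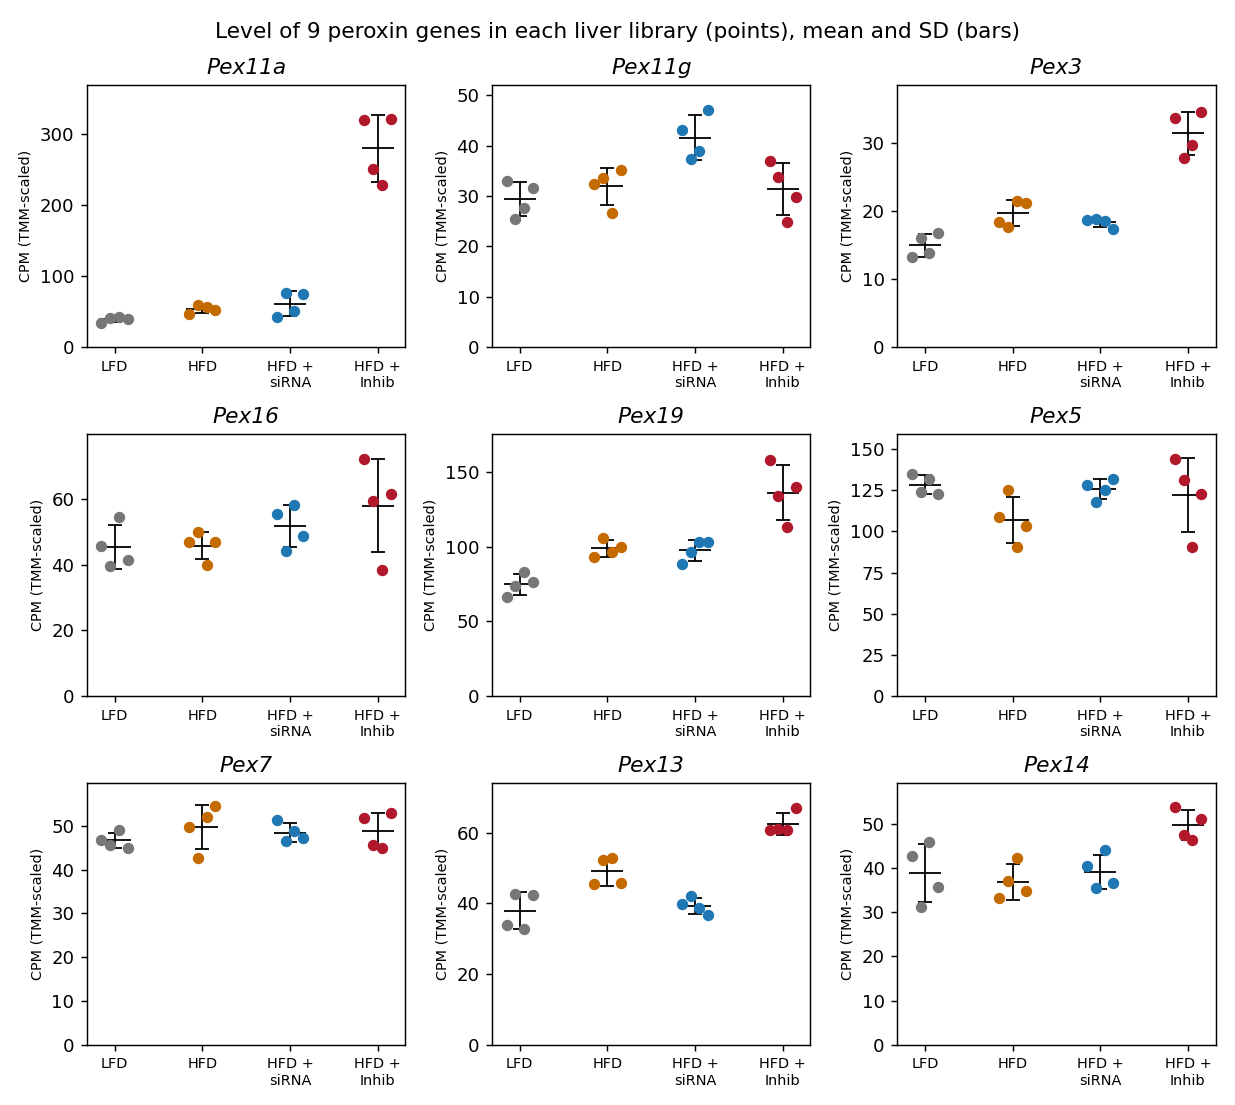
Level of each of the 9 peroxin genes (TMM-scaled CPM, linear axes from 0) in the 4 libraries of each of 4 groups; points are libraries, lines the mean and SD. The 4 HFD + Inhib libraries of Pex11a lie between 228 and 320 CPM, above every other library (34.5 to 76.7 CPM), whereas the points of Pex7 lie between 42.7 and 54.5 CPM in all groups.

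To show what the genes that moved carry in front of their start, the 250 bases before the start site are printed for Pex11a, Pex11g, Pex3, Pex13 and Pex14, as RefSeq gives them on GRCm38.p6, read 5′ to 3′ along the gene. All 5 genes lie on the minus strand, at chr7:79743132-79743381, chr8:3467649-3467898, chr10:13553143-13553392, chr11:23665884-23666133 and chr4:149099844-149100093. Capitals mark AGGTCA, the core to which nuclear receptors bind, CCAAT, and GGGCGG, the GC box, on either strand.
Pex11a: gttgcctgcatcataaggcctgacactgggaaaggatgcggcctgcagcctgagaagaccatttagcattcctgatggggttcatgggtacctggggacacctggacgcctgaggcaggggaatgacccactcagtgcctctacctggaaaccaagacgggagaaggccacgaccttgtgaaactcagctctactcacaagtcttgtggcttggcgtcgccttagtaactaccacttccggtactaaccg
Pex11g: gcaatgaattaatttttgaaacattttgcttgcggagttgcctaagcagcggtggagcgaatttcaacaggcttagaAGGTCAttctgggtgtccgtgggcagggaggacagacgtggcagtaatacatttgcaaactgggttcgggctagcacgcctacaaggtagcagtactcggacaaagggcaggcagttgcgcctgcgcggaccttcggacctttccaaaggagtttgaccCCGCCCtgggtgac
Pex3: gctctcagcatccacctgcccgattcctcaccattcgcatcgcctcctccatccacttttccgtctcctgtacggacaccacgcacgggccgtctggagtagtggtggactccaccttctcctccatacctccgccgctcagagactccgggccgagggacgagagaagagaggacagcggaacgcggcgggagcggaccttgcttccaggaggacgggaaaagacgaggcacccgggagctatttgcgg
Pex13: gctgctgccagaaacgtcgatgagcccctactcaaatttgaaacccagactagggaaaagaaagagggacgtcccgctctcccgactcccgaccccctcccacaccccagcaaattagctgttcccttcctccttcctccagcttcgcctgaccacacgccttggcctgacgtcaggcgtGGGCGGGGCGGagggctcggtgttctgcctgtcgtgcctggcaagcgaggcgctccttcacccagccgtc
Pex14: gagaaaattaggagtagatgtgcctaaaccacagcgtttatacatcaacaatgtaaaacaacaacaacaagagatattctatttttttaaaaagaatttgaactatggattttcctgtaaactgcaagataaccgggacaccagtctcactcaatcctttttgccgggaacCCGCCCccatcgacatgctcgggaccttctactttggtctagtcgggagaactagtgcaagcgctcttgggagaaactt
Promoter entries were present for 8 of the 9 genes, with 11 windows in all, since Pex5 and Pex16 have several start sites. AGGTCA was found in 1 of the 11 windows, that of Pex11g, and in 14% of the 32851 windows of all genes. The GC box was found in 6 of the 11 (32.7% of all windows), among them those of Pex11g, Pex13 and Pex14, and in Pex13 a pair of GC boxes overlaps. CCAAT was found in 4 of the 11 (33.8% of all), none of them printed here. The direct repeat AGGTCANAGGTCA, the form that PPARα with RXR binds, contains the core as part of itself. It was in none of the 11 windows and in 0.0335% of all, and with a free base in each core, AGGNCANAGGNCA, it was also in none and in 0.338% of all. These are matches of letters in short windows, not binding sites.

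Pex11a, the member of the PEX11 family known for its induction in rodent liver, had the widest range among the 9 genes, 2.81 log2 units between the lowest and the highest group mean. Its level was 34.5, 41.2, 42.8 and 39.3 CPM in the LFD libraries and 46, 58.6, 56.1 and 52.6 CPM in the HFD libraries. It was 42, 76.7, 50.2 and 74.4 CPM in the HFD + siRNA libraries and 319, 250, 228 and 320 CPM in the HFD + Inhib libraries. Every HFD + Inhib library lay above every library of the other groups, and the HFD + siRNA libraries spread most relative to their mean (60.8 ± 17.4 CPM, n = 4). Against HFD, the log2 fold change in HFD + Inhib was 2.39 ± 0.17 (SE), with an adjusted p of 2.3e-07 by edgeR's quasi-likelihood test and rank 21 by p among the 18335 genes. Against HFD + siRNA it was 2.20 (adjusted p = 2.7e-07). The LFD and HFD libraries did not overlap, but the difference of 0.43 (95% interval 0.07 to 0.79) did not pass the threshold (adjusted p = 0.0877), although it did in a fit of these 2 groups alone (adjusted p = 0.0241). The interval in the siRNA comparison ran from -0.17 to 0.55 (0.19, adjusted p = 0.511).

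Pex11g, which encodes the gamma form of PEX11, a protein that takes part in peroxisome division, had another order of groups than Pex11a. Its level was 32.9, 25.5, 27.6 and 31.5 CPM in the LFD, 32.3, 33.6, 26.6 and 35.2 CPM in the HFD, 43.1, 37.4, 38.9 and 47.1 CPM in the HFD + siRNA and 36.9, 33.8, 24.9 and 29.8 CPM in the HFD + Inhib libraries. The HFD + siRNA libraries were the highest and overlapped no other group. Against HFD their log2 fold change was 0.38 ± 0.13 (SE; adjusted p = 0.0587 by edgeR), which missed the threshold. HFD + Inhib libraries were lower than HFD + siRNA libraries (log2 fold change -0.41, adjusted p = 0.019). That call was lost after a correction that removes the trend with GC content and transcript length in each library (-0.29, adjusted p = 0.0612), but was kept under that correction when the replicate number was also a block (-0.29, adjusted p = 0.0149). It was lost, too, without HFD + siRNA replicate 1 (-0.38, adjusted p = 0.0526) or 4 (-0.33, 0.08) and without HFD + Inhib replicate 3 (-0.31, 0.0661) or 4 (-0.39, 0.0527). In the inhibitor comparison the interval was -0.29 to 0.24. Of the 50-base words in Pex11g transcripts, 39.2% lie on the opposite strand of the transcript Gm44775, and since it is not stated whether reads were counted by strand, reads of the pair cannot be told apart.

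Of the genes that assemble the peroxisomal membrane, Pex3 and Pex19 rose with the HFD and again with the inhibitor. Pex3, the membrane anchor on which PEX19 docks, had 13.2, 16, 13.8 and 16.8 CPM in the LFD libraries and 18.3, 17.7, 21.5 and 21.1 CPM in the HFD libraries. In the HFD + siRNA libraries it had 18.6, 18.8, 18.5 and 17.3 CPM, and in the HFD + Inhib libraries 33.6, 27.8, 29.6 and 34.5 CPM. All HFD libraries were above all LFD libraries and below all HFD + Inhib libraries, and the HFD + siRNA libraries lay within or just under the HFD range. The log2 fold change was 0.39 ± 0.10 (SE) in the diet comparison (adjusted p = 0.0132), 0.67 ± 0.10 in the inhibitor comparison (adjusted p = 1.7e-04) and 0.78 ± 0.10 in the treatment comparison (adjusted p = 2.8e-05, all by edgeR). In the siRNA comparison its interval was -0.31 to 0.11. With a correction for GC content and length, the difference in the diet comparison was 0.21 and no longer passed (adjusted p = 0.0952), whereas the rise with the inhibitor was 0.51 (adjusted p = 3.0e-04). Pex3 values were not whole numbers in any library, as RSEM, the program that made them, gives where reads match several genes.

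Pex19, the soluble receptor and chaperone that brings membrane proteins to PEX3, had 66.1, 73.8, 82.9 and 76.1 CPM in the LFD, 93, 106, 96.2 and 100 CPM in the HFD, 88.1, 96.3, 103 and 103 CPM in the HFD + siRNA and 158, 134, 113 and 140 CPM in the HFD + Inhib libraries. As for Pex3, HFD libraries stood above LFD libraries and HFD + Inhib libraries above both, and the HFD and HFD + siRNA libraries overlapped. Pex19 rose by 0.40 ± 0.10 (SE, log2) in the diet comparison (adjusted p = 0.0119) and by 0.46 ± 0.10 in the inhibitor comparison (adjusted p = 0.0038). Of the 3 peroxin genes that rose with the HFD, Pex19 alone kept its call after the GC and length correction (0.51, adjusted p = 0.00132). In the siRNA comparison its interval was -0.23 to 0.19.

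Pex16, which encodes a membrane protein that recruits PEX3, did not pass the threshold in any comparison. It had 45.7, 39.7, 54.6 and 41.3 CPM in the LFD, 46.8, 49.9, 39.9 and 46.8 CPM in the HFD, 55.6, 44.1, 58.3 and 48.8 CPM in the HFD + siRNA and 72.3, 59.4, 38.5 and 61.7 CPM in the HFD + Inhib libraries. Of the HFD + Inhib libraries, 3 were above every other library and replicate 3 was below all of them. The log2 fold change against HFD was 0.34 ± 0.16 (SE; adjusted p = 0.153). It passed without HFD + Inhib replicate 3 (0.49, adjusted p = 0.0141) and after the GC and length correction (0.43, adjusted p = 0.0096). The same correction also gave a call in the treatment comparison (0.44, adjusted p = 0.00655; 0.16 and 0.443 without it). HFD + Inhib replicate 3 was the lowest library of its group for 8 of the 9 genes, all but Pex3.

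The genes of the cytosolic import receptors did not pass the threshold in any of the 4 comparisons. Pex5, the receptor for the C-terminal targeting signal that most matrix enzymes carry, had 135, 124, 132 and 123 CPM in the LFD, 109, 125, 90.8 and 103 CPM in the HFD, 128, 118, 125 and 132 CPM in the HFD + siRNA and 144, 131, 90.8 and 123 CPM in the HFD + Inhib libraries. The HFD group held the lowest mean, and its libraries overlapped those of each other group. The largest difference was -0.27 in the diet comparison (95% interval -0.52 to -0.02, adjusted p = 0.13). In the inhibitor comparison the difference was 0.19 (adjusted p = 0.294), and it passed without HFD + Inhib replicate 3 (0.31, adjusted p = 0.0401) and after the GC and length correction (0.27, adjusted p = 0.0463).

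Pex7, the receptor for the N-terminal signal of a few enzymes such as phytanoyl-CoA hydroxylase, was the steadiest of the 9 genes, with 0.09 log2 units between its lowest and highest group mean. Its libraries ran from 45 to 49.1 CPM in the LFD group (46.8, 45.6, 49.1 and 45), from 42.7 to 54.5 in the HFD group (49.7, 42.7, 52 and 54.5), from 46.5 to 51.3 in the HFD + siRNA group (51.3, 46.5, 48.9 and 47.1) and from 45 to 53 in the HFD + Inhib group (51.8, 45.6, 45 and 53). All 4 groups overlapped. The 95% intervals of its log2 fold changes were -0.08 to 0.27 in the diet comparison, -0.21 to 0.14 in the siRNA comparison, -0.20 to 0.15 in the inhibitor comparison and -0.17 to 0.19 in the treatment comparison, so that a change as large as that of Pex3 with the inhibitor lies outside each.

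Both genes of the docking complex rose with the inhibitor, by small steps. Pex13 encodes a docking protein with an SH3 domain. It had 33.9, 42.7, 32.9 and 42.5 CPM in the LFD, 45.5, 52.4, 53 and 45.7 CPM in the HFD, 39.8, 42.2, 38.6 and 36.6 CPM in the HFD + siRNA and 60.8, 61.1, 60.7 and 67 CPM in the HFD + Inhib libraries. HFD libraries were above all LFD and all HFD + siRNA libraries, HFD + Inhib libraries were above all others, and the LFD and HFD + siRNA libraries overlapped. The log2 fold change was 0.37 ± 0.10 (SE) in the diet comparison (adjusted p = 0.0142), -0.32 ± 0.10 in the siRNA comparison (adjusted p = 0.0375), 0.34 ± 0.10 in the inhibitor comparison (adjusted p = 0.0186) and 0.67 ± 0.10 in the treatment comparison (adjusted p = 8.0e-05).

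Every Pex13 call was lost under at least 1 alternative. Pex13 transcripts have the lowest GC content of the 9 (38.6%, against 42.8% to 60.1% in the others), and across 8232 well-expressed genes the log2 fold changes followed GC content, with a Spearman rho of -0.531 in the diet comparison, 0.506 in the siRNA comparison, -0.272 in the inhibitor comparison and -0.535 in the treatment comparison. These are correlations across genes, which are not independent replicates. After the GC and length correction the Pex13 difference turned to -0.10 in the diet comparison (adjusted p = 0.399) and to 0.13 in the siRNA comparison (adjusted p = 0.312), was 0.22 in the inhibitor comparison (adjusted p = 0.0434) and was 0.09 in the treatment comparison (adjusted p = 0.382). Without HFD replicate 3 the call in the diet comparison was lost (0.33, adjusted p = 0.0507), as it was in a fit of these 2 groups alone (0.0526). The call in the siRNA comparison was lost without HFD replicate 2 (adjusted p = 0.0891) or 3 (0.119) and without HFD + siRNA replicate 1 (0.0624), 3 (0.0711) or 4 (0.0958), and with no filter on low counts (0.0709). That in the inhibitor comparison was lost without HFD replicate 1 (adjusted p = 0.0654) or 4 (0.0645) or HFD + Inhib replicate 4 (0.0597).

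Pex14, the membrane partner that first meets the loaded receptors, had 42.7, 31.2, 45.8 and 35.8 CPM in the LFD, 33.2, 37, 42.3 and 34.8 CPM in the HFD, 40.5, 35.5, 44 and 36.6 CPM in the HFD + siRNA and 53.8, 47.4, 46.4 and 51.1 CPM in the HFD + Inhib libraries. HFD + Inhib libraries were above all others, and the other 3 groups overlapped. Against HFD the log2 fold change was 0.43 ± 0.12 (SE; adjusted p = 0.0155), and 0.54 after the GC and length correction (adjusted p = 4.4e-04). The uncorrected call was lost without HFD replicate 1 (adjusted p = 0.0548) or 4 (0.052) or HFD + Inhib replicate 1 (0.0524). Against HFD + siRNA it was 0.34 (adjusted p = 0.0308; 0.62 after the correction), and was lost without HFD + siRNA replicate 2 (0.0674) or 4 (0.0763) or HFD + Inhib replicate 1 (0.0703) or 4 (0.0687). Its intervals were -0.32 to 0.17 in the diet comparison and -0.16 to 0.33 in the siRNA comparison. Pex14 shares 25.2% of its 50-base words with Gm17029 on the opposite strand, and Gm17029 averaged between 4.29 and 5.22 CPM in the 4 groups.

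**Figure D2:**
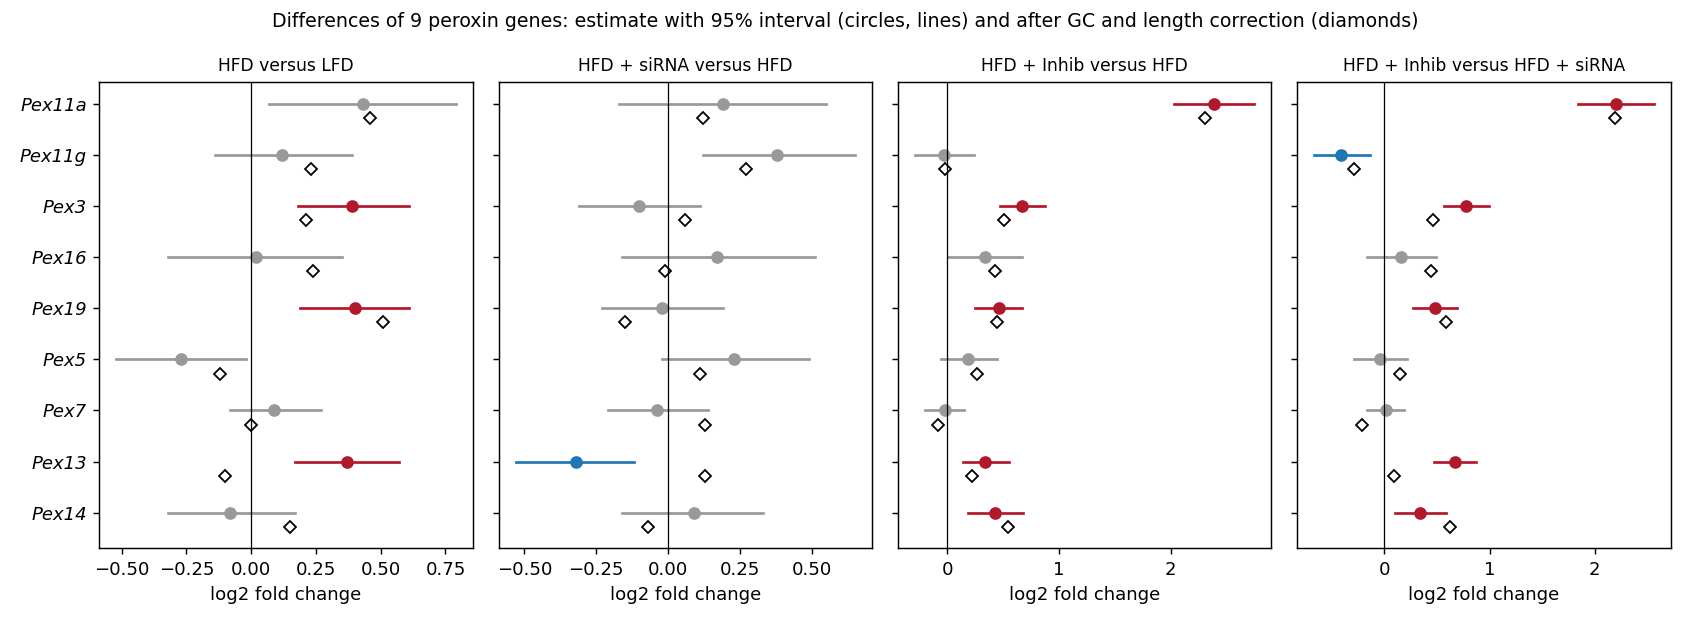
Log2 fold change of each of the 9 peroxin genes in the 4 comparisons, 1 panel each with its own axis range; circles and lines are the edgeR estimate and its 95% interval (red for rose, blue for fell, grey for not past the threshold) and diamonds the estimate after the GC and length correction. Pex11a stands at 2.39 in the inhibitor comparison, and the Pex13 diamonds lie on the other side of 0 from its circles in the diet comparison and in the siRNA comparison.

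Groups that did not overlap were counted without a model. Of the 9 genes, 4 were higher in every HFD library than in every LFD library and 0 were lower (10.7% and 9.69% of all genes tested, 20.4% in either direction). In the siRNA comparison 1 was higher and 1 lower (10.1% and 10.4%, 20.6% in either direction). With the inhibitor, 5 were higher than in HFD livers and 0 lower (12.4% and 10.9%, 23.3% in either direction), and 5 were higher and 1 lower than in HFD + siRNA livers (16.7% and 15.8%, 32.4% in either direction). The summed level of the 9 genes was 456 ± 17.9 CPM (SD, n = 4) in the LFD, 492 ± 22.1 in the HFD, 522 ± 15.3 in the HFD + siRNA and 819 ± 112 in the HFD + Inhib group. The HFD + Inhib sums ran from 676 to 930 CPM. Most of the step between the HFD and HFD + Inhib sums was Pex11a, at 53.3 ± 5.46 and 279 ± 47.6 CPM.

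To compare the genes with each other, CPM was divided by the length of the principal protein-coding transcript in kilobases. In HFD livers the order of these levels was Pex19 (51.5 ± 2.85 CPM per kilobase, SD, n = 4), Pex5 (33.9 ± 4.5), Pex16 (32.9 ± 3.03), Pex11a (23.8 ± 2.44), Pex14 (18.3 ± 1.97), Pex13 (11.9 ± 0.985), Pex11g (11.1 ± 1.3), Pex3 (9.24 ± 0.901) and Pex7 (6.14 ± 0.623). Of the neighbours in that order, Pex5 and Pex16 differed by less than their SD, as did Pex13 and Pex11g. In HFD + Inhib livers Pex11a came first (125 ± 21.3 CPM per kilobase), before Pex19 (71 ± 9.85). Pex5 (38.8 ± 7.15) and Pex16 (41.6 ± 10.1) overlapped there within their SD, and Pex7 remained last (6.03 ± 0.511). Pex7 was divided by the longest transcript of the 9 (8099 bases), and a shorter form in use would raise its level.

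**Figure D3:**
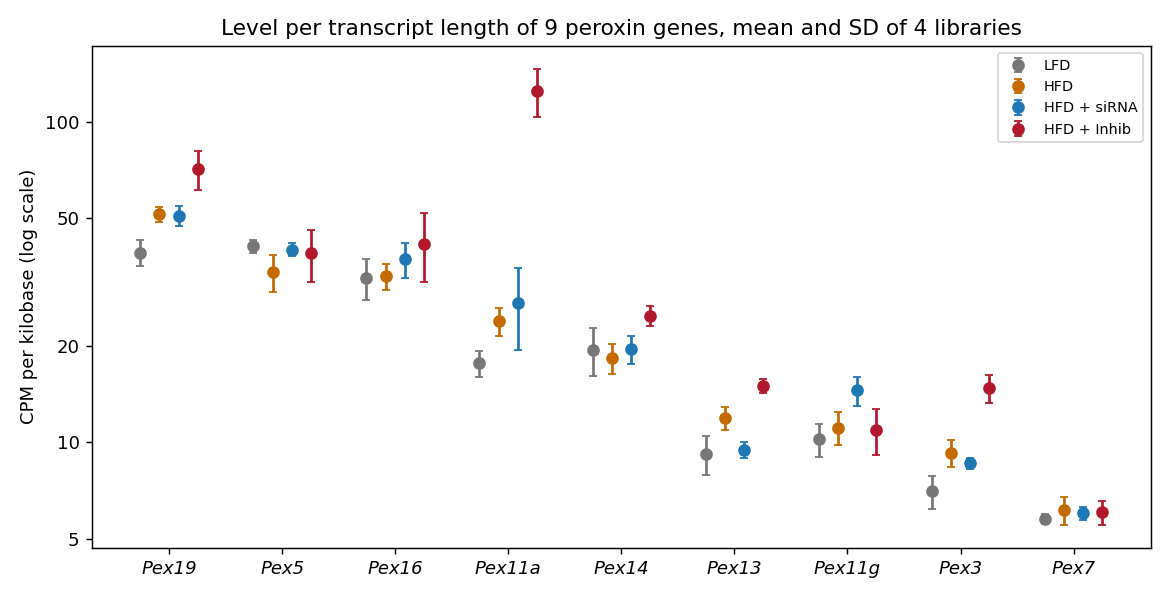
Level per transcript length (CPM per kilobase, log axis) of the 9 peroxin genes, ordered by their level in the HFD group; points and bars are the mean and SD of 4 libraries. Pex11a moves from the fourth place at 23.8 in HFD to the first at 125 in HFD + Inhib, and Pex7 stays near 6 in all groups.

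Among themselves, the 9 genes were unequally alike. Over the 16 libraries, log2 CPM of Pex3 had a Pearson r of 0.927 with Pex11a, 0.913 with Pex13 and 0.899 with Pex19. With the group means removed these were 0.24, 0.616 and 0.239. Pex5 and Pex16 were the pair most alike within groups (r = 0.844; 0.649 over all libraries), and Pex5 had an r of 0.0206 with Pex11a. The libraries share their groups and depth, so these values describe the 16 libraries and were given no p.

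The genes most like Pex11a over the 16 libraries, among 12400 compared, were Apmap (r = 0.99; 0.759 with group means removed), Hsd17b4 (0.987; 0.733), Etfdh (0.98; 0.647), Decr2 (0.98; 0.537) and Hacd3 (0.979; 0.664). Hsd17b4 encodes the multifunctional enzyme of peroxisomal beta-oxidation, Decr2 a peroxisomal reductase for unsaturated fatty acids, and Etfdh a mitochondrial carrier of electrons from beta-oxidation. Their log2 fold changes in the inhibitor comparison were 0.90, 1.05, 0.99, 1.15 and 0.75 in the same order, all smaller than that of Pex11a. The same libraries and depths stand behind all of these values, which are a description with no p.

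A list of 8 further peroxins was set beside the 9 genes, of which 7 were tested. Pex5l, a relative of Pex5, had at most 5 counts in a library and was not tested. None of the 7 passed in the diet comparison or in the siRNA comparison, against 18.4% and 11.7% of all genes. Their median log2 fold change in the inhibitor comparison was -0.13, and their summed level was 188 ± 18.7 CPM (SD, n = 4) in the HFD and 203 ± 25.7 in the HFD + Inhib group. Pex6, which encodes a subunit of the ATPase that pulls used PEX5 back out of the membrane, had a log2 fold change of -0.17 with the inhibitor (95% interval -0.53 to 0.20), and Pex26, its membrane anchor, -0.13 (-0.46 to 0.19). Of the RING-finger genes whose proteins mark PEX5 for recycling, Pex2 and Pex10 gave -0.18 and -0.21 (adjusted p = 0.318 and 0.419 by edgeR). In the treatment comparison Pex2 was lower with the inhibitor (-0.30, adjusted p = 0.0496). After the GC and length correction Pex2 was lower in the inhibitor comparison as well (-0.34, adjusted p = 0.0307), and Pex10 was higher with the diet (0.62, adjusted p = 0.0077) and lower with the siRNA (-0.47, adjusted p = 0.0426).

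Matrix enzymes are the cargo of the import receptors. A list of such enzymes was put together by name, and where each protein lies in the cell was not checked. Among 38 tested genes of this list, 24 rose and 1 fell in the inhibitor comparison, against 9.8% and 8.42% of all genes. Their median log2 fold change was 0.49. Ehhadh, the bifunctional enzyme of beta-oxidation, rose by 4.65 (from 278 ± 32.6 to 6970 ± 1490 CPM). Other large rises were those of Acot3 (2.94), Acaa1b (2.30), Crat (1.89) and Acot4 (1.76), which encode an acyl-CoA thioesterase, a thiolase, carnitine acetyltransferase and another thioesterase. Pipox, an oxidase of pipecolic acid and sarcosine, fell by 0.47. In the diet comparison 6 of the 38 rose and 3 fell (median 0.06), against 9.58% and 8.8% of all genes. Acot3 (3.40) and Acot4 (1.32) rose most, and the counts were not tested against those shares. Those that fell were Nudt7, a CoA hydrolase (to 0.5 of its LFD level), Hacl1 (by 0.70) and Acox3 (by 0.33). In the siRNA comparison 4 rose, Pipox (0.56), Acox2 (0.44), Nudt19 (0.44) and Ephx2 (0.42). A further 5 fell, Acot3 (-1.44), Ehhadh (-0.65), Far1 (-0.64), Ddo (-0.59) and Agps (-0.55), and the median of the 38 was 0.13. Shares of all genes that rose and fell there were 5.2% and 6.55%. After the GC and length correction 3 of the 38 rose and 3 fell in the siRNA comparison. With that correction 23 rose and 3 fell in the inhibitor comparison, and 7 rose and 4 fell in the diet comparison. Shares of all genes past the threshold under the correction were 9.14% in the siRNA, 20.8% in the inhibitor and 15.2% in the diet comparison. The summed level of the 39 matrix genes in the table was 14800 ± 365 CPM in the HFD and 38200 ± 4570 in the HFD + Inhib group.

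Among 9 genes of peroxisomal membrane proteins that are not peroxins, 4 rose and 1 fell in the inhibitor comparison (median 0.24). For this and the next list, the shares of all genes that rose and fell in that comparison were 9.8% and 8.42%. They were 9.58% and 8.8% in the diet comparison and 5.2% and 6.55% in the siRNA comparison. Under the GC and length correction 20.8%, 15.2% and 9.14% of all genes passed in the same order. Abcd3, the most abundant transporter of the list, rose by 1.72 (from 531 ± 46.1 to 1750 ± 196 CPM), Pxmp4 by 0.81, Mpv17l by 0.55 and Tmem135 by 0.43. In the diet comparison 2 rose, among them Abcd2 (1.56), and none fell. In the siRNA comparison none rose and 2 fell, Abcd2 (-1.15) and Tmem135 (-0.29). Both of these calls were lost after the GC and length correction, where none of the 9 rose or fell in the siRNA comparison (median -0.10). With that correction 3 rose and 1 fell in the inhibitor comparison, and 3 rose and 0 fell in the diet comparison. Of 10 tested genes of peroxisome division, tethering and quality control, 3 rose with the inhibitor and none fell (median 0.12). These were Acbd5 (0.66), the tether to the endoplasmic reticulum, Lonp2 (0.60), the matrix protease, and Vapb (0.28), the partner of ACBD5. In the diet comparison 1 rose, Vapa (0.22), and none fell. In the siRNA comparison none rose and 2 fell, Nbr1 (-0.42) and Vapa (-0.29). After the GC and length correction 4 of the 10 rose and 1 fell in the inhibitor comparison (median 0.06). With that correction 0 rose and 1 fell in the siRNA comparison, and 1 rose and 0 fell in the diet comparison.

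A list of 20 genes was set for PPARα and its known targets, and it also holds Rxra and Ppargc1a. In the inhibitor comparison 15 of them rose and none fell (median 1.45), against 9.8% and 8.42% of all genes. Rxra (-0.21), Ppargc1a (-0.27) and Fgf21 (-0.95) had lower levels there without passing. Cyp4a10 rose by 5.26 (from 129 ± 36.3 to 4960 ± 663 CPM), Cyp4a14 by 5.13, Acot1 by 4.46, Slc27a1 by 4.30, Pdk4 by 3.39 and Cidec by 2.55. Ppara itself had a difference of 0.29 there and did not pass. It rose by 0.81 in the diet comparison, where 8 of the 20 rose and none fell (median 0.37), Cidec (3.04), Fgf21 (2.26) and Cd36 (1.78) the most. In the siRNA comparison none rose and 1 fell, Cidec (-1.12), with a median of 0.01. Shares of all genes that rose and fell were 9.58% and 8.8% in the diet and 5.2% and 6.55% in the siRNA comparison. With the GC and length correction 15 of the 20 rose in the inhibitor comparison and 10 in the diet comparison, and none fell. In the siRNA comparison 0 then rose and 1 fell. All-gene shares past the threshold were then 20.8%, 15.2% and 9.14%. Acox3, Rxra, Ppargc1a and the genes given for the siRNA comparison were named after their values were seen. These lists were put together with earlier results of these data known, so their counts describe the libraries.

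**Figure D4:**
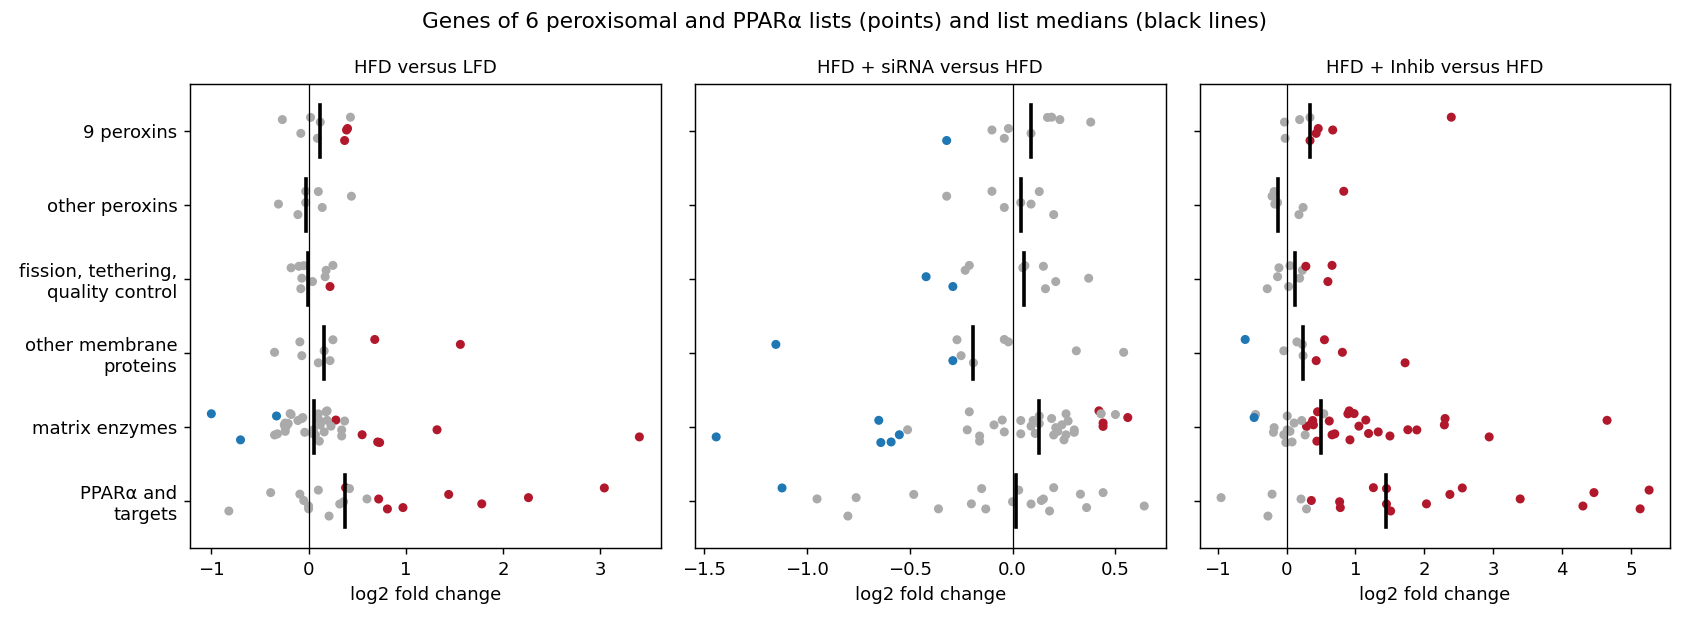
Log2 fold change of every tested gene of 6 lists (the 9 peroxins, the other peroxins, division, tethering and quality control, other membrane proteins, matrix enzymes, PPARα and targets) in 3 comparisons that share the HFD libraries; red points rose, blue points fell, grey points did not pass, and black lines are list medians. In the inhibitor comparison the medians run from -0.13 in the other peroxins to 1.45 in PPARα and its targets, with 0.34 for the 9 peroxins.

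The liver label was checked against markers of cell types. The 6 hepatocyte markers summed to 76400 ± 8840 CPM (SD, n = 4) in the LFD, 65600 ± 6560 in the HFD, 70900 ± 5100 in the HFD + siRNA and 40600 ± 1630 in the HFD + Inhib group, with Alb the most abundant. The HFD + Inhib sums (38200 to 41800 CPM) lay below all HFD sums (55800 to 69600 CPM). In the inhibitor comparison, 3 of the 6 fell (Ttr by 0.93, Alb by 0.77 and Cps1 by 0.53), and in the diet comparison 2 fell (Serpina1a by 0.54 and Apoa1 by 0.50). Tat had the other sign with the inhibitor (0.24) and did not pass. Among all genes 8.42% fell and 9.8% rose in the inhibitor comparison, and 8.8% fell in the diet comparison. Of 7 markers of Kupffer cells and macrophages 2 fell with the inhibitor, Cd5l and Clec4f, and their sum was 250 ± 23.1 CPM in the HFD and 189 ± 35.4 in the HFD + Inhib group, Clec4f being the most abundant. Of 5 stellate cell markers 3 fell, Reln, Pdgfrb and Colec11 (391 ± 35.6 and 290 ± 16.4 CPM, led by Reln). Of 5 endothelial markers 1 rose, Lyve1 (259 ± 17.5 and 249 ± 8.01 CPM, led by Stab2), and of 4 lymphocyte markers tested 2 fell, among them Nkg7 (3 ± 0.985 and 1.43 ± 0.361 CPM, led by Cd79a). None of the 4 cholangiocyte markers passed (10.8 ± 2.09 and 15.5 ± 5.36 CPM, led by Sox9), the 3 adipocyte markers were too low to test (at most 1.03 CPM in an HFD library), and of the pancreas markers Cela1 fell by 1.57 (15.6 ± 2.71 and 5.24 ± 1.17 CPM for the 4). Lep, of the adipocyte markers, was above 0 only in HFD replicate 2 (0.539 CPM). Prss2, of the pancreas markers, was above 0 only in LFD replicate 4 (0.033 CPM). The part of the markers other than those of hepatocytes in the peroxin results was likewise not tested.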

How the data were processed

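The deposited values are expected counts of 50559 gene symbols in 16 libraries, which the authors did not scale, and 15.1% of them are not whole numbers. The submitters' processing notes name STAR, RSEM and mm39, with no versions. The study's methods name HTG EdgeSeq, a probe assay whose output would be whole counts of a fixed panel. The source of the table is thus unsettled, and values tied to GC content or shared sequence hold only for reads along transcripts. Depth was 24317111 to 35820234 counts per library. No library repeated another (chi-square per gene 20.7 to 154).

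Counts were rounded, filtered with filterByExpr (minimum count 10), scaled by TMM and tested in 1 fit of all 16 libraries with edgeR 4.0.16 (glmQLFit, glmQLFTest; R 4.3.3, limma 3.58.1; dispersion 0.038). SE and 95% intervals are those of the log2 contrast. Log2 CPM used a prior count of 2. Alternatives were DESeq2 1.42.0, RLE size factors, other filters, the 2 compared groups only, a replicate block, each library left out, an adjusted p under 0.01, and a GC and length correction. The correction fitted a trend with 5 degrees of freedom per term in each library over 8232 genes and entered the fit as offsets for the 15858 genes (86.5%) with values from GENCODE M21, whose transcripts also gave lengths and the 50-base words shared between genes. No gene positions on mm39 were used, and the promoter windows are on another build, GRCm38.p6. The scripts were tested on simulated data.

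The genes, lists and tests were chosen with earlier results of these data known. Named genes are the 9 peroxins, other peroxins, Khk, the markers, up to 6 genes of each list with the largest change past the threshold with the inhibitor or with the diet, and the 5 genes most correlated with Pex11a among those whose average log2 CPM was 1 or more. Some genes that the rule would name are not reported here.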

Additional observations from a re-analysis of the deposited data

Results flagged for a closer look

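Of 36 sets of 4 libraries (9 genes in 4 groups), 1 had a library set apart from the others by Dixon's criterion, which chance meets in about 1 of 20 sets. This was Pex13 in HFD + Inhib replicate 4, at 67 CPM, with the others between 60.7 and 61.1 CPM and a gap of 0.935 of the range.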

How the results depend on the processing

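Of 612 refits of single peroxin genes under alternatives, 533 kept their direction and their side of the threshold, 35 lost it, 12 gained it and 32 changed sign, and the rise of Pex11a with the inhibitor stayed between 2.31 and 2.48 in all 17 alternatives.

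Counts of peroxin genes past the threshold moved as follows, and the cause was not tested. In HFD versus LFD, 3 became 1 with GC and length offsets, with or without the replicate block, and 0 at an adjusted p under 0.01. In HFD + siRNA versus HFD, 1 became 2 with DESeq2, with the 2 groups only and with the replicate block, Pex11g being the addition each time. It became 0 with no filter, with GC and length offsets with or without the block, and at an adjusted p under 0.01. In HFD + Inhib versus HFD, 5 became 3 at an adjusted p under 0.01 and 7 with GC and length offsets, with or without the block. In HFD + Inhib versus HFD + siRNA, 6 became 4 at an adjusted p under 0.01 and 5 with the offsets, and stayed 6 with the offsets and the block. Over all genes, in the order of these 4 comparisons, 15.2%, 9.14%, 20.8% and 28.8% passed with the offsets, 15.9%, 9.65%, 21.4% and 29.1% with the offsets and the block, and 7.02%, 3.76%, 9.45% and 20.2% at an adjusted p under 0.01. In HFD + siRNA versus HFD the share was 16.6% with DESeq2, 15% with the 2 groups only, 11.3% with the block and 4.91% with no filter. Leaving out 1 library gave 2 to 3 in HFD versus LFD, 0 to 1 in HFD + siRNA versus HFD, 3 to 7 in HFD + Inhib versus HFD and 4 to 6 in HFD + Inhib versus HFD + siRNA. In HFD + Inhib versus HFD the count was 3 without HFD replicate 1 or 4 and 7 without HFD + Inhib replicate 3. Over all genes, leaving out 1 library gave 10.8% to 19.8%, 5.89% to 10.6%, 13.6% to 16.3% and 26.5% to 33.4% past the threshold in the same order.

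The sign changes were these (log2 fold changes). In HFD versus LFD, GC and length offsets gave -0.10 for Pex13 and 0.15 for Pex14, with the block -0.10 and 0.14. In HFD + siRNA versus HFD the offsets gave 0.06 for Pex3, 0.13 for Pex7, 0.13 for Pex13, -0.07 for Pex14 and -0.01 for Pex16, with the block 0.06, 0.13, 0.13, -0.07 and -0.00. In HFD + Inhib versus HFD + siRNA they gave 0.15 for Pex5 and -0.21 for Pex7, with the block 0.15 and -0.20. Leaving out 1 library turned the sign of genes that had not passed, over ranges of -0.17 to 0.02 for Pex14 and -0.04 to 0.12 for Pex16 in HFD versus LFD, -0.06 to 0.02 for Pex19 in HFD + siRNA versus HFD, -0.09 to 0.02 for Pex7 and -0.12 to 0.07 for Pex11g in HFD + Inhib versus HFD, and -0.11 to 0.08 for Pex5 and -0.03 to 0.06 for Pex7 in HFD + Inhib versus HFD + siRNA. Without the offsets, the block changed no call but that of Pex11g in HFD + siRNA versus HFD (0.38, adjusted p = 0.0286). With the offsets, it changed no call but the Pex11g difference between the treatments, -0.29 in both fits, whose adjusted p was 0.0149 with the block and 0.0612 with the offsets alone. The numbers do not pair the libraries: same-numbered libraries had deviations correlated between -0.132 and 0.336, over 0.1 in 4 of 16 pairs, and 5 libraries matched best with their own number. Levels of the 9 genes with RLE size factors moved by less than 1 SD in all 36 groups.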
